A study of Mus musculus with 12 samples.

Results

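The genes of the amino acid and peptide transporters were described across the small intestine (SI) and large intestine (LI) of the mouse. Members were all genes whose symbol belongs to the solute carrier families Slc1a, Slc3a, Slc6a, Slc7a, Slc15a, Slc36a, Slc38a or Slc43a. The rule found 68 of the 55487 genes in the table, and 56 of the 68 passed the filter on low counts that left 19581 genes for testing. Polyadenylated or total RNA selection is not given in the sources used here, and the libraries were sequenced as read pairs on an Illumina HiSeq. The 4 groups held 3 libraries each: SI crypts and LI crypts, which were freshly isolated, and SI monolayers and LI monolayers, which were grown from such crypts for 24 h in control medium. All tissue came from C57BL/6 mice of 6 to 10 weeks, male or female, with no transgene in any group, and none of the drugs tested in the study was given. SI crypts came from the jejunum and were released with EDTA. LI crypts were released with Collagenase D, Dispase and DNase followed by EDTA, in medium with the inhibitor Y-27632, so region and isolation cannot be told apart. Each crypt library came from 1 mouse and each monolayer library from pooled wells. The methods took LI tissue from the mice that gave the jejunum, and no label ties a library to a mouse, so libraries of the 2 regions may share mice although the tests treat them as independent. Monolayers of both regions were seeded for the first hours with the inhibitors CHIR-99021, LDN-193189 and Y-27632 beside growth factors. The control medium that followed contained Wnt3a, EGF, Noggin and R-spondin-1 on Matrigel, and it supplied non-essential amino acids, a stable glutamine dipeptide and N-acetylcysteine to both monolayer groups. Nothing in the sources says that the monolayer libraries came from separate mice, so p-values that involve them measure the spread between these libraries, which may be technical.

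Absorptive cells of the intestine take up peptides and amino acids from the lumen through carriers in the brush border, the folded apical membrane, and release them to the blood through exchangers and facilitators in the basolateral membrane. Several carriers work as pairs, in which a light chain of the Slc7a family moves the substrate and a heavy chain, Slc3a1 or Slc3a2, brings it to the membrane. Other members feed growing cells with glutamine, cystine, glycine or cationic amino acids, and part of these are known targets of the transcription factor Atf4, which is induced when amino acids run short or proteins misfold.

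The libraries held 59016196 to 76216530 counts, and levels are given as CPM, counts scaled to the library total with TMM factors of edgeR. A count of 3, taken as the limit of a count of 0, corresponds to 0.0394 to 0.0508 CPM. Levels below are the values of single libraries or the mean ± SD of 3 libraries, and differences are log2 fold changes ± SE. A difference was called when the quasi-likelihood test of edgeR gave a Benjamini-Hochberg adjusted p under 0.05 and the log2 fold change was at least 1 in size. Adjustment was over all 19581 genes. Of the counts from 1 to 20, 73.4% to 77.4% were even numbers in each library, so both mates of a pair may have been counted. With 2 counts taken as 1 fragment, replicates differed by 1.5 to 3.2 times the counting noise, and all were kept as separate libraries. All 12 enterocyte markers were at 1 CPM or more in both crypt groups and in the SI monolayers, and 11 of 12 in the LI monolayers. Their summed level was 15591 to 24532 CPM in the SI crypts, 5777 to 5942 CPM in the SI monolayers, 1148 to 1461 CPM in the LI crypts and 1085 to 1192 CPM in the LI monolayers. The sum of 12 immune markers was 974.7 to 1832 CPM in the SI crypts and 1250 to 1669 CPM in the LI crypts, against 159 to 168 CPM in the SI monolayers and 13.2 to 16.7 CPM in the LI monolayers. Cd74 held most of it in LI crypts (1195 to 1621 CPM) and was at 403 to 1256 CPM in SI crypts. In SI monolayers Cd74 and Lyz2 held most of the sum, at means of 105 and 41.3 CPM. Lyz2 was at 44.9 CPM in SI crypts. Ptprc and Gzma were at 2.42 and 6.58 CPM in SI monolayers. Cd74, Cd68 and Csf1r had higher means in LI than in SI crypts. All other immune markers were higher in SI crypts, such as Gzma (318 against 11.1 CPM) and Cd8a (44.5 against 4.63 CPM). Only Cd68 had a higher mean in monolayers than in crypts, in both regions. Markers of stem cells also differed, with sums of 1218 to 1618 CPM in the SI crypts, 113 to 122 CPM in the SI monolayers, 81.6 to 90.4 CPM in the LI crypts and 3.12 to 8.88 CPM in the LI monolayers. Most of the SI crypt sum was Olfm4, at a mean of 1252 CPM there, 18.4 CPM in SI monolayers and 2.23 CPM in LI crypts. Lgr5 had means of 9.85 CPM in SI crypts, 10.7 CPM in SI monolayers and 4.19 CPM in LI crypts. Ascl2, Smoc2 and Axin2 were lower in SI monolayers than in SI crypts, Smoc2 at 54.9 against 92.9 CPM. Goblet cell markers summed to 15793 to 20086 CPM in the LI crypts and 1529 to 1713 CPM in the LI monolayers, and enteroendocrine markers to 172 to 209 CPM and 833 to 956 CPM. Mitochondrial genes took 4.56% to 9.16% of counts in the SI crypts, 2.25% to 2.59% in the LI crypts and under 1% in the monolayers. The part of these cell types and of RNA quality in the results below was not tested, and in bulk RNA fewer cells of a type and less RNA per cell cannot be told apart. SI crypts library 3 stood apart, with the lowest enterocyte sum of its group (15591 CPM) and the highest Paneth sum (21686 CPM, against 4573 and 8661 CPM in libraries 1 and 2). Of the 8 brush border members that reached a mean of 10 CPM in a group, 7 were lowest in this library among the SI crypts, at a median log2 ratio of -0.59 to the mean of the other two, whereas none of the 7 growth-related members was. Its part in the results was not tested, and values without it are given where they change a call.

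The transporter genes covered a wide range of levels. Of the 68, 30 reached a mean of at least 10 CPM in at least 1 group, 14 had a highest group mean of 1 to 10 CPM and 24 stayed under 1 CPM in every group. The members Slc7a12 and Slc7a13 had no count in any library, and among the 12 that were not tested no group mean was above 0.316 CPM. The summed level of all members was 4109 ± 666 CPM in the SI crypts, 2302 ± 20.7 CPM in the SI monolayers, 2369 ± 131 CPM in the LI crypts and 2421 ± 66.7 CPM in the LI monolayers. The SI crypts lay above the other groups, whose 3 means lay close to each other.

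**Figure D1:**
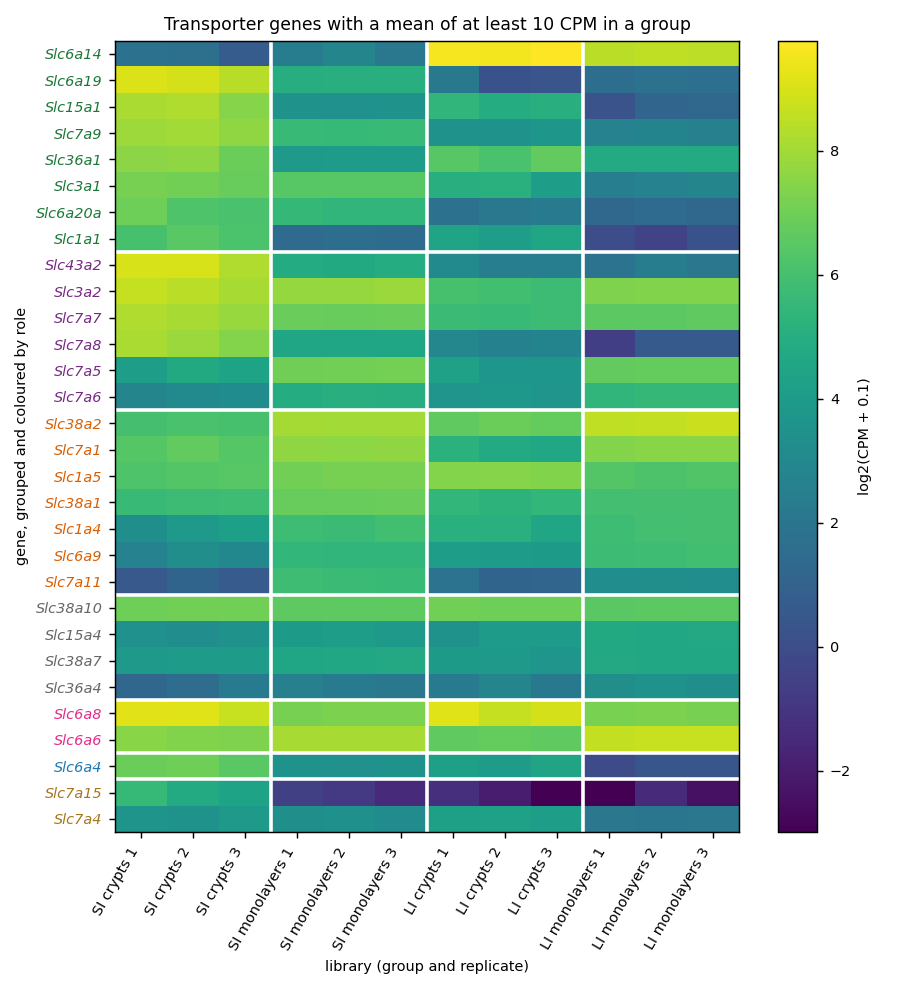
Level of the 30 members with a mean of at least 10 CPM in a group (rows, grouped and coloured by role) in each of the 12 libraries (columns), as log2(CPM + 0.1). Slc6a14 is brightest in the 6 LI libraries, Slc6a19, Slc15a1, Slc7a9 and Slc43a2 are brightest in the 3 SI crypt libraries, and Slc38a2, Slc7a1, Slc7a5 and Slc6a9 are brighter in monolayers than in crypts of both regions.

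To compare genes of different length, levels were divided by the kilobases of all annotated exons of each gene. The transcript in use may be shorter, so orders and shares per kb depend on the annotation. In these units the order of the members differed between the groups. In the SI crypts the 5 highest were Slc6a8 at 100.2 ± 16.9 CPM per kb, Slc3a2 at 97.5 ± 18.6, Slc6a19 at 93.3 ± 22.3, Slc7a9 at 87.2 ± 9.69 and Slc7a7 at 81.2 ± 13.4 CPM per kb, and neighbours in this order did not differ beyond their spread. A single gene led the LI crypts: Slc6a14 reached 233 ± 19.8 CPM per kb, 43.6% of the summed CPM per kb of all members, followed by Slc6a8 at 93.6 ± 15.7 and Slc1a5 at 40.9 ± 1.21 CPM per kb. In the SI monolayers Slc3a2 led with 63.3 ± 1.93 CPM per kb, ahead of Slc3a1 at 38.9 ± 0.443 and Slc7a5 at 36.3 ± 1.49 CPM per kb. The LI monolayers were again led by Slc6a14, at 106 ± 3.16 CPM per kb and 23.4% of the members' sum, before Slc6a6, Slc3a2 and Slc38a2, which lay between 45.1 and 48.3 CPM per kb.

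Culture changed many of the transporter genes in each region. In SI monolayers against SI crypts, 10 of the 56 tested members were called higher and 21 lower. Of all tested genes 26.1% were called, 9.71% higher and 16.4% lower. The median log2 fold change was -0.55 over the members and -0.05 over all genes. The groups did not overlap in 42 of the 56 members, beside 66.4% of all genes. In LI monolayers against LI crypts, 12 members were higher and 13 lower. Of all tested genes 38% were called, 14.5% higher and 23.5% lower, so the share of lower members, 23.2%, was near that of all genes. The groups did not overlap in 39 of the 56 members, beside 73.0% of all genes. With trends of GC content and transcript length removed, 17 members were higher and 11 lower in the LI. In the SI 10 were higher and 18 lower. All genes at this setting split into 3954 higher and 3662 lower in the LI, and 2741 higher and 2651 lower in the SI. In both comparisons 14 members were called the same way. The share of all genes called the same way in both was not computed. Slc38a2, Slc6a9, Slc7a1, Slc7a11, Slc7a3, Slc7a5 and Slc7a6 were higher in both cultures, and Slc15a1, Slc1a1, Slc36a1, Slc6a4, Slc6a7, Slc6a8 and Slc7a8 were lower in both. The 2 members Slc6a14 and Slc7a2 were called in opposite directions.

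**Figure D2:**
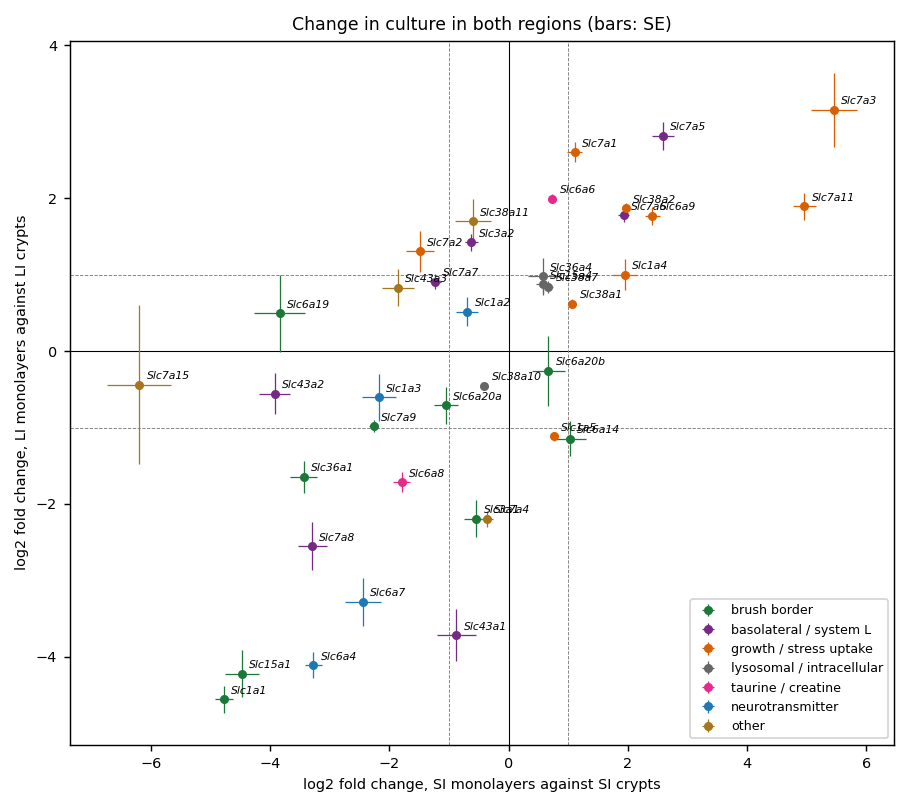
Log2 fold change of monolayers against crypts in the SI (horizontal axis) and in the LI (vertical axis) for the 39 named members, coloured by role, with bars of 1 SE and dashed lines at -1 and 1. The growth-related members, such as Slc7a11, Slc7a3, Slc38a2 and Slc6a9, lie at the upper right, Slc15a1, Slc1a1, Slc6a4 and Slc7a8 at the lower left, and Slc6a19 and Slc43a2 far to the left near the horizontal line at 0.

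Between the regions, the crypts differed most often towards the SI. In SI crypts against LI crypts, 20 of the 56 tested members were higher and 6 lower. Of all tested genes 22.7% were called, 11.6% higher and 11.1% lower, and the lower share of the members, 10.7%, was near that of all genes. The groups did not overlap in 37 of the 56 members, beside 58.6% of all genes. In SI monolayers against LI monolayers, 14 were higher and 5 lower. Of all tested genes 21.2% were called, 12.4% higher and 8.88% lower, and again the lower share, 8.93%, was near that of all genes. The groups did not overlap in 35 of the 56 members, beside 62.4% of all genes. The difference between the regions itself changed with culture in 25 members: the interaction (the change in culture in the SI minus that in the LI) was called higher in 7 and lower in 18. Of all tested genes 20% were called, 11.4% higher and 8.51% lower. The median interaction was -0.32 over the members and close to 0 over all genes.

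**Figure D3:**
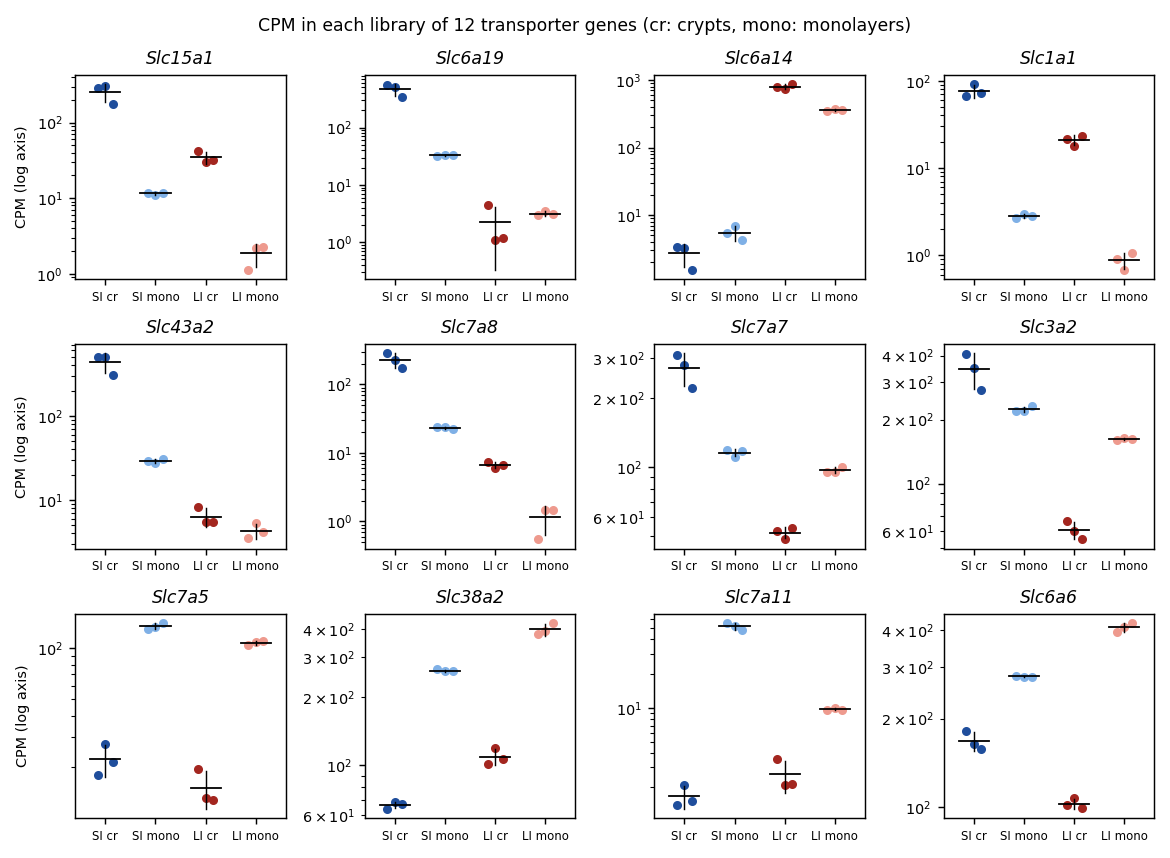
CPM of 12 members in each library on a logarithmic axis, with the mean of each group as a horizontal line and 1 SD as a vertical bar (cr, crypts; mono, monolayers; n = 3). Slc15a1 and Slc1a1 are lower in monolayers of both regions, Slc6a14 is over 300 CPM in every LI library and under 10 CPM in every SI library, and Slc7a11 is highest in the SI monolayers.

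Brush border carriers differed between the regions in nearly all tested members. Of 12 such members 9 were tested, of which 7 were higher and 1 lower in SI than in LI crypts, and 7 higher and 1 lower in SI than in LI monolayers. Shares over all genes were 11.6% higher and 11.1% lower in crypts, and 12.4% and 8.88% in monolayers. In culture 6 fell and 1 rose in the SI, and 5 fell in the LI. Beside this, 16.4% of all genes fell and 9.71% rose in the SI, and 23.5% fell in the LI. The lists of members by role were written with earlier results of these data known. Slc15a1 (ENSMUSG00000025557.10, chr14:121459621-121505252), the proton-coupled carrier of di- and tripeptides, measured 287, 305 and 177 CPM in the SI crypts, 11.8, 11.0 and 11.9 CPM in the SI monolayers, 42.0, 29.8 and 31.9 CPM in the LI crypts and 1.13, 2.19 and 2.28 CPM in the LI monolayers. All 4 groups were separate, with the SI crypts highest and the LI monolayers lowest. It fell in culture by a log2 fold change of -4.47 ± 0.28 in the SI and -4.22 ± 0.31 in the LI (edgeR adjusted p = 7.9e-07 and 1.6e-06). The interaction of -0.25 ± 0.40 had a 95% interval of -1.17 to 0.67. The excess of SI over LI was 2.89 ± 0.26 in crypts and 2.64 ± 0.31 in monolayers. Slc1a1, the high-affinity carrier of glutamate and aspartate, also fell in both regions. It measured 66.6, 92.2 and 71.9 CPM in the SI crypts, 2.65, 2.97 and 2.81 CPM in the SI monolayers, 21.8, 17.8 and 23.4 CPM in the LI crypts and 0.913, 0.683 and 1.06 CPM in the LI monolayers. No groups overlapped, and the fall in culture was -4.77 ± 0.16 in the SI and -4.55 ± 0.17 in the LI. Of the exon bases of Slc1a1, 31.9% also lie in a gene on the opposite strand, from which reads cannot be told apart if strand was not used.

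Slc6a19 (ENSMUSG00000021565.16, chr13:73679745-73704865) is the main sodium-dependent carrier of neutral amino acids in the brush border. It showed the largest excess of SI over LI crypts among the members with at least 10 CPM. The excess of Slc7a15 (7.56) lay within the SE of that value. Slc6a19 measured 556, 504 and 342 CPM in the SI crypts, 31.4, 33.2 and 33.2 CPM in the SI monolayers, 4.47, 1.09 and 1.20 CPM in the LI crypts and 2.96, 3.48 and 3.06 CPM in the LI monolayers. Every SI library lay above every LI library, and the drop from SI crypts to SI monolayers left both SI groups apart, while the LI groups overlapped at low level. The log2 fold change of SI over LI was 7.70 ± 0.53 in crypts and 3.37 ± 0.46 in monolayers. Culture lowered it by -3.84 ± 0.42 in the SI (edgeR adjusted p = 5.2e-05), whereas the LI value of 0.49 ± 0.51 did not pass the test. LI crypts library 1 held 4.47 CPM against 1.09 and 1.20 CPM in the other libraries, and without it the LI change was called at 1.46, the excess in crypts was 8.67 and the interaction went from -4.33 ± 0.64 to -5.30. The members Slc6a18 and Slc6a3 lie on the same chromosome within a short distance of Slc6a19, and both were under 0.5 CPM in every group.

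The pair Slc7a9 and Slc3a1 forms the exchanger that takes up cystine and cationic amino acids and is defective in cystinuria. Slc7a9, the light chain, measured 239, 256 and 205 CPM in the SI crypts, 48.9, 46.8 and 50.6 CPM in the SI monolayers, 11.8, 11.9 and 13.3 CPM in the LI crypts and 6.23, 6.63 and 5.90 CPM in the LI monolayers. Slc3a1, the heavy chain, measured 141, 133 and 111 CPM in the SI crypts, 89.2, 87.2 and 88.6 CPM in the SI monolayers, 33.3, 34.1 and 17.9 CPM in the LI crypts and 5.42, 6.32 and 6.93 CPM in the LI monolayers. Both were higher in every SI library than in any LI library, but they parted in culture. In the SI the light chain fell (-2.26 ± 0.08) and the heavy chain gave -0.54 ± 0.22 (edgeR adjusted p = 0.057). In the LI the heavy chain fell (-2.19 ± 0.24) and the light chain gave -0.98 ± 0.08, just under the required size of change. The interaction was lower for Slc7a9 (-1.28 ± 0.11) and higher for Slc3a1 (1.65 ± 0.32). The excess of SI over LI thus narrowed for the light chain, from 4.24 ± 0.09 to 2.96 ± 0.08, and widened for the heavy chain, from 2.18 ± 0.23 to 3.83 ± 0.25. Of the exon bases of Slc3a1, 26.5% lie in Prepl on the opposite strand.

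Slc36a1, a proton-coupled carrier of glycine, alanine and proline in the brush border and in lysosomes, measured 191, 205 and 119 CPM in the SI crypts, 14.7, 16.3 and 16.5 CPM in the SI monolayers, 89.4, 70.2 and 104 CPM in the LI crypts and 28.1, 27.8 and 28.3 CPM in the LI monolayers. It was called lower in both cultures, by -3.44 ± 0.22 in the SI and -1.64 ± 0.21 in the LI, and the interaction of -1.79 ± 0.29 was called (edgeR adjusted p = 7.7e-04). The region difference, 0.97 ± 0.20 in crypts and -0.83 ± 0.21 in monolayers, was under the required size in both, but that in crypts was called without SI crypts library 3 (1.17) or LI crypts library 3 (1.10). Slc6a20a, a carrier of proline and other imino acids, measured 125, 77.3 and 69.0 CPM in the SI crypts, 45.3, 42.5 and 43.3 CPM in the SI monolayers, 3.45, 4.25 and 4.58 CPM in the LI crypts and 2.43, 2.7 and 2.38 CPM in the LI monolayers. It was over 10 times higher in SI than in LI libraries of the same preparation, with log2 fold changes of 4.46 ± 0.23 in crypts and 4.13 ± 0.24 in monolayers. Its fall in SI culture (-1.05 ± 0.19) was not called without SI crypts library 1 (-0.74), without SI monolayers library 2 (-0.99) or with GC and length trends removed (-0.88). The paralog Slc6a20b, which lies beside it and could share reads with it, was at 2.24 ± 1.0 CPM in the SI crypts and 3.54 ± 0.187 CPM in the SI monolayers and under 0.2 CPM in each LI library, and it was higher in SI by 3.96 ± 0.36 in crypts and 4.89 ± 0.37 in monolayers. Of the exon bases of Slc6a20a, 14.3% lie in Gm17120, Gm17200 and Ccr9 on the opposite strand. For Slc6a20b, 21.1% lie in Sacm1l on the opposite strand.

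Slc6a14 (ENSMUSG00000031089.7, chrX:21714896-21742355) is a sodium- and chloride-dependent carrier of neutral and cationic amino acids known from the colon and the airways. It was the 1 brush border member called lower in SI than in LI, in crypts and in monolayers. It measured 3.38, 3.24 and 1.55 CPM in the SI crypts, 5.34, 6.95 and 4.24 CPM in the SI monolayers, 779, 747 and 878 CPM in the LI crypts and 352, 374 and 361 CPM in the LI monolayers. The LI libraries of both preparations were above every SI library, and LI crypts were above LI monolayers. Its log2 fold change in SI relative to LI was -8.21 ± 0.31 in crypts (edgeR adjusted p = 2.4e-08) and -6.04 ± 0.28 in monolayers. Culture gave -1.14 ± 0.22 in the LI and 1.03 ± 0.27 in the SI, and the interaction was 2.17 ± 0.35. The LI call was lost with GC and length trends removed (-0.98). The SI call was lost without SI crypts library 3 (0.74), without SI monolayers library 2 (0.86), with upper quartile normalization (0.99), with a minimum of 10 counts in every library (0.96) and with DESeq2 (0.98). Per kilobase its level in LI crypts, 233 ± 19.8 CPM per kb, was above that of Slc6a19 in SI crypts, 93.3 ± 22.3 CPM per kb.

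The promoter of Slc3a1 is shown because this gene had the highest level per kilobase among the brush border members in SI monolayers and because motifs of intestinal transcription factors were searched in all promoter windows. RefSeq windows (GRCm38.p6), from 250 bases before to 50 after the start, existed for 49 of the 68 members. The letters CAAAGTCCA, a common form of the HNF4 motif, occurred on either strand in 0.555% of the 27025 genes with a window and in 1 of the 49 members, and TTTATTG, the CDX2 motif, in 5.33% of genes and in 1 of the 49, which was Slc3a1 in both cases. The HNF1 motif, searched in its palindromic form, was in 3 genes and in no member. The stretch below is chr17:85028247-85028346 on the plus strand and ends at the base before the start, with the CDX2 letters beginning 73 bases and the HNF4 letters 39 bases before the start in capitals. A match describes letters in this window and is not evidence of binding.
Slc3a1: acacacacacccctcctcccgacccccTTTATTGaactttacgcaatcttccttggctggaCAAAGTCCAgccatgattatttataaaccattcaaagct

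Among the 7 basolateral and system L members, all tested, 4 were higher and 1 lower in SI than in LI crypts, and 2 were higher in SI than in LI monolayers. Shares over all genes were 11.6% higher and 11.1% lower in crypts, and 12.4% higher in monolayers. In culture 2 rose and 3 fell in the SI, and 3 rose and 2 fell in the LI. Beside this, 9.71% of all genes rose and 16.4% fell in the SI, and 14.5% rose and 23.5% fell in the LI. Slc43a2, a facilitator that releases branched-chain and aromatic amino acids, measured 505, 506 and 309 CPM in the SI crypts, 29.5, 27.2 and 30.3 CPM in the SI monolayers, 8.22, 5.43 and 5.40 CPM in the LI crypts and 3.54, 5.33 and 4.12 CPM in the LI monolayers. Its SI crypts stood far above the other groups, and both LI groups were under 10 CPM. The fall in SI culture was -3.92 ± 0.25 (edgeR adjusted p = 8.7e-07), and the LI change of -0.56 ± 0.27 did not pass the test. The excess of SI over LI narrowed from 6.11 ± 0.29 in crypts to 2.75 ± 0.26 in monolayers (interaction -3.37 ± 0.36). Slc7a8, a light chain that exchanges neutral amino acids across the basolateral membrane, measured 283, 231 and 172 CPM in the SI crypts, 23.7, 23.8 and 22.5 CPM in the SI monolayers, 7.48, 6.00 and 6.77 CPM in the LI crypts and 0.551, 1.47 and 1.47 CPM in the LI monolayers. It fell in both cultures without overlap of the groups, by -3.29 ± 0.25 in the SI and -2.55 ± 0.32 in the LI, and SI exceeded LI by 5.08 ± 0.27 in crypts and 4.34 ± 0.31 in monolayers.

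The heavy chain Slc3a2 (ENSMUSG00000010095.13, chr19:8706882-8723369) and the light chain Slc7a7, which together export cationic amino acids at the basolateral side and are linked to lysinuric protein intolerance through Slc7a7, moved towards a common level in culture. Slc3a2 measured 408, 348 and 277 CPM in the SI crypts, 219, 219.6 and 231 CPM in the SI monolayers, 66.5, 59.8 and 55.1 CPM in the LI crypts and 159.6, 164 and 163 CPM in the LI monolayers. Slc7a7 measured 308, 279 and 221 CPM in the SI crypts, 118, 110.3 and 117 CPM in the SI monolayers, 52.6, 48.2 and 53.7 CPM in the LI crypts and 94.7, 95.2 and 100.1 CPM in the LI monolayers. For both genes the 4 groups did not overlap, SI crypts were highest and LI crypts lowest, and the monolayers of the regions lay between them. Slc3a2 rose in LI culture (1.42 ± 0.11) and gave -0.62 ± 0.11 in SI culture, and its interaction was -2.05 ± 0.16 (edgeR adjusted p = 6.2e-07). Slc7a7 fell in SI culture (-1.23 ± 0.09), gave 0.91 ± 0.09 in LI culture and had an interaction of -2.14 ± 0.13. The excess of SI over LI was 2.51 ± 0.12 for Slc3a2 and 2.39 ± 0.10 for Slc7a7 in crypts, against 0.46 ± 0.11 and 0.25 ± 0.09 in monolayers. With GC and length trends removed, the call of Slc7a7 in SI culture was lost (-0.90) and its rise in LI culture was called (1.59).

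Slc7a5, the light chain that brings large neutral amino acids into growing cells, rose in culture in both regions. It measured 18.0, 27.4 and 21.5 CPM in the SI crypts, 129, 134 and 140.3 CPM in the SI monolayers, 19.5, 13.2 and 12.9 CPM in the LI crypts and 103, 109 and 109 CPM in the LI monolayers. Crypt libraries of both regions were under 30 CPM and monolayer libraries over 100 CPM. The log2 fold change was 2.59 ± 0.18 in the SI and 2.82 ± 0.18 in the LI (edgeR adjusted p = 7.8e-07 and 2.8e-07), and the interaction of -0.23 ± 0.25 had a 95% interval of -0.78 to 0.33. Slc7a6, the ubiquitous relative of Slc7a7, measured 7.0, 8.45 and 9.21 CPM in the SI crypts, 29.9, 33.2 and 31.0 CPM in the SI monolayers, 12.5, 13.8 and 12.8 CPM in the LI crypts and 42.2, 45.7 and 45.7 CPM in the LI monolayers. It rose by 1.93 ± 0.09 in the SI and 1.77 ± 0.09 in the LI, and no groups overlapped. Slc43a1, a facilitator of large neutral amino acids, was low, at 6.99 ± 0.225 CPM in the LI crypts and means under 2 CPM in the other groups, and fell in LI culture (-3.71 ± 0.34).

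The balance of the light chains that pair with Slc3a2 shifted in culture in both regions. The set of 6 light chains was chosen after the values were seen, and shares are of their summed CPM per kb. Slc7a7 and Slc7a8 made up 60.2 ± 0.782% and 33.6 ± 2.39% of the sum in the SI crypts, and 40.2 ± 1.16% and 5.41 ± 0.248% in the SI monolayers. Slc7a5 went from 4.57 ± 1.26% in the SI crypts to 42.0 ± 1.22% in the SI monolayers, and from 16.9 ± 3.19% in the LI crypts to 42.0 ± 0.396% in the LI monolayers. Monolayers of the SI and LI therefore had about the same share of Slc7a5, and also of Slc7a7, which took 64.6 ± 2.83% in the LI crypts and 42.4 ± 0.714% in the LI monolayers. They differed in Slc7a6, with 7.96 ± 0.497% in the SI and 14.1 ± 0.308% in the LI monolayers, and in Slc7a11, with 4.36 ± 0.347% and 1.02 ± 0.0302%. The light chains summed to 135 ± 23.9 CPM per kb in the SI crypts, 86.3 ± 1.48 in the SI monolayers, 24.1 ± 1.58 in the LI crypts and 68.8 ± 2.11 CPM per kb in the LI monolayers, each above the level of the heavy chain Slc3a2 in the same group. Shares of RNA describe neither protein nor assembled pairs.

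**Figure D4:**
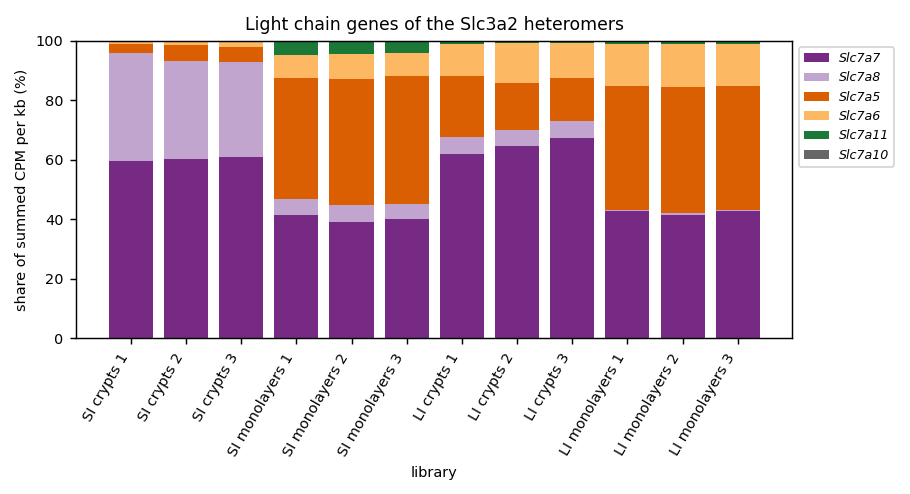
Share of each of 6 light chain genes in their summed CPM per kb of exon, in each of the 12 libraries (stacked bars, each adding up to 100%). The Slc7a8 part (light purple) is large in the SI crypts, and the Slc7a5 part (dark orange) grows from crypts to monolayers in both regions.

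Most members that serve growth and the amino acid stress response were higher in culture. Of 10 such members 9 were tested, of which 7 rose and 1 fell in SI culture and 6 rose and 1 fell in LI culture, at median log2 fold changes of 1.95 and 1.77 beside -0.05 over all genes in both. Shares over all genes were 9.71% higher and 16.4% lower in SI culture, and 14.5% and 23.5% in LI culture. Slc7a11 (ENSMUSG00000027737.10, chr3:49892526-50443614), the exchanger of cystine for glutamate that supplies cysteine for glutathione, had the largest rise among the members with at least 10 CPM. It measured 1.40, 2.10 and 1.52 CPM in the SI crypts, 55.9, 52.3 and 48.9 CPM in the SI monolayers, 3.58, 2.12 and 2.17 CPM in the LI crypts and 9.62, 9.92 and 9.68 CPM in the LI monolayers. The SI monolayers stood above all other libraries, and the LI monolayers above both crypt groups. The rise was 4.96 ± 0.19 in the SI and 1.89 ± 0.18 in the LI (edgeR adjusted p = 1.4e-10 and 4.4e-07), with an interaction of 3.07 ± 0.25. Slc7a3, a carrier of cationic amino acids, was near the limit of detection in crypts, at 0.117 ± 0.0237 CPM in the SI and 0.0443 ± 0.0409 CPM in the LI, and reached 5.16 ± 0.214 CPM in the SI monolayers and 0.408 ± 0.109 CPM in the LI monolayers. Without LI crypts library 1 the LI rise of Slc7a3 (3.16 ± 0.48) was 3.87. Its interaction (2.30 ± 0.75) was not called without LI crypts library 1 (1.59) or library 3 (2.17).

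Slc38a2, a sodium-coupled carrier of glutamine and alanine that adapts to amino acid supply, measured 64.2, 68.6 and 67.2 CPM in the SI crypts, 265, 260.2 and 260.1 CPM in the SI monolayers, 101, 119 and 107 CPM in the LI crypts and 379, 391 and 426 CPM in the LI monolayers. It rose about equally in both regions, by 1.97 ± 0.06 and 1.87 ± 0.06, and the 95% interval of the interaction was -0.08 to 0.29. Slc6a9, a glycine carrier, measured 6.31, 10.04 and 7.83 CPM in the SI crypts, 43.9, 41.9 and 43.1 CPM in the SI monolayers, 17.5, 17.0 and 15.7 CPM in the LI crypts and 54.2, 56.3 and 60.1 CPM in the LI monolayers. It rose by 2.41 ± 0.12 in the SI and 1.77 ± 0.12 in the LI, and its exons share 30.2% of their bases with genes on the opposite strand. Slc7a1, the widespread carrier of arginine and lysine, measured 84.8, 105 and 85.5 CPM in the SI crypts, 199, 195 and 200.3 CPM in the SI monolayers, 35.9, 27.8 and 24.3 CPM in the LI crypts and 170.2, 181 and 183 CPM in the LI monolayers. SI crypts were above LI crypts (1.65 ± 0.13), and the monolayers of the regions differed by 0.16 ± 0.12, which did not pass the test. The rise in culture was larger in the LI (2.60 ± 0.13) than in the SI (1.11 ± 0.12), with an interaction of -1.49 ± 0.17 (edgeR adjusted p = 2.9e-05).

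Glutamine carriers of this set did not all rise. Slc1a5, the exchanger through which many growing cells take up glutamine, measured 76.8, 81.9 and 89.0 CPM in the SI crypts, 135, 143 and 141 CPM in the SI monolayers, 173, 174 and 165 CPM in the LI crypts and 81.5, 75.1 and 79.6 CPM in the LI monolayers. The order of the regions reversed: LI was above SI in crypts without overlap (-1.05 ± 0.06), and in monolayers SI was above LI by 0.83 ± 0.06, under the required size. It fell in LI culture (-1.11 ± 0.06) and gave 0.76 ± 0.06 in SI culture, and the interaction of 1.87 ± 0.08 was called (edgeR adjusted p = 7.8e-11). The LI call was lost with GC and length trends removed (-0.91) and the crypt call without SI crypts library 1 (-0.995). Slc38a1, a sodium-coupled glutamine carrier that neighbours Slc38a2 on the same chromosome, measured 51.3, 53.8 and 56.2 CPM in the SI crypts, 110.5, 114 and 115 CPM in the SI monolayers, 43.5, 38.4 and 43.6 CPM in the LI crypts and 63.3, 64.6 and 65.0 CPM in the LI monolayers. It rose in SI culture by 1.07 ± 0.06 and gave 0.62 ± 0.06 in the LI. Slc1a4, an exchanger of alanine, serine and cysteine, measured 10.3, 14.7 and 18.4 CPM in the SI crypts, 55.4, 52.9 and 59.7 CPM in the SI monolayers, 35.1, 34.0 and 23.3 CPM in the LI crypts and 57.0, 63.4 and 64.3 CPM in the LI monolayers. It rose in SI culture by 1.95 ± 0.21, and its LI change of 0.999 ± 0.20 was just under the required size. The lower level of Slc1a4 (-1.09 ± 0.21) and of Slc6a9 (-1.05 ± 0.12) in SI than in LI crypts was not called without SI crypts library 1 (-0.89 and -0.90), and that of Slc1a4 also not without LI crypts library 1 (-0.98). The interaction of Slc1a4 (0.95 ± 0.29) was called without SI crypts library 3 (1.16) and with 9 other settings.

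Slc7a2, an inducible carrier of cationic amino acids, went the opposite way in the regions at low level. It was at 3.18 ± 0.633 CPM in the SI crypts, 1.13 ± 0.0805 CPM in the SI monolayers, 0.372 ± 0.0734 CPM in the LI crypts and 0.923 ± 0.208 CPM in the LI monolayers. The groups did not overlap within either region. The change was -1.49 ± 0.24 in the SI and 1.30 ± 0.26 in the LI, with an interaction of -2.79 ± 0.36, and the LI call was lost with GC and length trends removed (0.95).

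Promoter stretches of Slc7a11 and Slc1a4 are shown because both rose in SI culture and because both hold the letters TGATGNAA, a short form of the element bound by Atf4 (the CARE motif). These letters occurred on either strand in 4.51% of the 27025 genes, against 5 of the 49 members with a window (10.2%), namely Slc15a5, Slc1a4, Slc6a21, Slc7a11 and Slc7a7. Of these, Slc15a5 and Slc6a21 were not tested and Slc7a7 fell in SI culture, so the letters stood in members that rose and in a member that fell. The antioxidant response letters TGACNNNGC were in 14.0% of genes and in 9 of the 49 members (18.4%). Slc7a11 is shown from chr3:50443614-50443713 and Slc1a4 from chr11:20332710-20332809, both on the minus strand of GRCm38.p6 as given by RefSeq. The stretch of Slc7a11 ends at the base before the start, with CARE letters beginning 66 and 47 bases before it, the latter on the other strand. That of Slc1a4 ends 4 bases past the start, with the letters across the start on the other strand. Capitals mark the CARE letters.
Slc7a11: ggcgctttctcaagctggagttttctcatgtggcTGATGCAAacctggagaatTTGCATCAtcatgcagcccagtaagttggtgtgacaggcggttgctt
Slc1a4: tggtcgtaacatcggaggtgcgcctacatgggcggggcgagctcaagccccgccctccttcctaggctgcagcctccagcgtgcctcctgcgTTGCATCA

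Per kilobase, the creatine carrier was among the 8 highest members in all groups and the taurine carrier in both monolayer groups. Slc6a6, the taurine carrier, measured 181, 164 and 158 CPM in the SI crypts, 279.8, 278 and 277 CPM in the SI monolayers, 101, 107 and 99.6 CPM in the LI crypts and 393, 411 and 422 CPM in the LI monolayers. Regional order reversed here too: SI was above LI in crypts (0.71 ± 0.06) and LI above SI in monolayers (-0.55 ± 0.06), both under the required size, and the interaction of -1.26 ± 0.08 was called (edgeR adjusted p = 4.0e-09). The rise in culture was 1.99 ± 0.06 in the LI and 0.73 ± 0.06, not called, in the SI. Slc6a8, the creatine carrier, measured 580.1, 566 and 420.5 CPM in the SI crypts, 143, 155 and 155 CPM in the SI monolayers, 566, 403 and 494 CPM in the LI crypts and 149, 153 and 145 CPM in the LI monolayers. It fell in both regions, by -1.79 ± 0.14 and -1.71 ± 0.14 (95% interval of the interaction -0.50 to 0.33). The regions differed by 0.10 ± 0.13 in crypts (95% interval -0.19 to 0.39) and 0.02 ± 0.13 in monolayers (95% interval -0.28 to 0.31). The other members of this role, Slc6a12 and Slc6a13, were under 1 CPM in every group.

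Few of the 7 lysosomal and other intracellular members, all tested, were called. None was called in LI culture and 1 was lower in SI culture, beside 38% and 26.1% of all genes. In SI relative to LI, Slc7a14 was higher in crypts (1.32 ± 0.43, with means under 1 CPM), 2 members were lower in monolayers, and the interaction was called for Slc15a3. Called shares over all genes were 22.7% between the crypts, 21.2% between the monolayers and 20% in the interaction. Slc38a10, an intracellular member of the glutamine carrier family, measured 123, 131 and 132 CPM in the SI crypts, 96.5, 97.9 and 97.9 CPM in the SI monolayers, 134, 126 and 123 CPM in the LI crypts and 91.2, 92.9 and 95.1 CPM in the LI monolayers. Its region differences were 0.02 ± 0.05 in crypts and 0.07 ± 0.05 in monolayers, and no other member with at least 10 CPM had both differences as small. Slc38a7, which exports glutamine and asparagine from lysosomes, measured 14.5, 16.7 and 16.3 CPM in the SI crypts, 24.0, 24.9 and 26.6 CPM in the SI monolayers, 15.3, 14.7 and 12.8 CPM in the LI crypts and 26.5, 25.3 and 24.9 CPM in the LI monolayers. Slc15a4, a lysosomal carrier of histidine and peptides, measured 11.1, 9.69 and 11.3 CPM in the SI crypts, 15.5, 17.0 and 15.3 CPM in the SI monolayers, 11.3, 16.1 and 16.0 CPM in the LI crypts and 27.6, 25.6 and 26.3 CPM in the LI monolayers. The changes of both in culture were 0.57 to 0.87 in either region, under the required size, and in the LI they were called with GC and length trends removed (1.02 for Slc38a7 and 1.17 for Slc15a4). Slc36a4, a carrier of proline and tryptophan, measured 2.27, 2.84 and 4.60 CPM in the SI crypts, 5.85, 4.49 and 4.21 CPM in the SI monolayers, 4.62, 7.01 and 4.37 CPM in the LI crypts and 9.90, 11.2 and 10.4 CPM in the LI monolayers. In crypts its difference of -0.71 ± 0.24 was called without SI crypts library 3 (-1.06). Its lower level in SI than in LI monolayers (-1.11 ± 0.24) was not called without SI monolayers library 3 (-0.99) or with GC and length trends removed (-0.82). Slc38a9, the lysosomal arginine sensor upstream of mTORC1, had group means of 4.69 to 9.24 CPM and no call. The call in SI culture was Slc15a3, a lysosomal peptide carrier of immune cells, at means of 0.278 CPM in the SI crypts and 0.00905 CPM in the SI monolayers. In the LI it was at 0.340 CPM in the crypts and 0.266 CPM in the monolayers (-0.36 ± 0.54, not called). Tmem132a on the opposite strand holds 28.1% of the exon bases of Slc15a3. The part of immune cells in these levels was not tested.

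Of the 12 neurotransmitter carriers, 10 were tested and 6 of these reached 1 CPM in a group. Slc6a4, the serotonin carrier, which intestinal epithelium uses to clear serotonin, measured 120.1, 124 and 90.5 CPM in the SI crypts, 11.9, 10.9 and 11.8 CPM in the SI monolayers, 19.0, 16.6 and 22.3 CPM in the LI crypts and 0.899, 1.23 and 1.24 CPM in the LI monolayers. It was lower in monolayers of both regions and higher in SI than in LI of either preparation, and no groups overlapped. The fall was -3.27 ± 0.14 in the SI and -4.11 ± 0.17 in the LI (edgeR adjusted p = 5.9e-10 and 1.9e-10), and the excess of SI over LI was 2.53 ± 0.13 in crypts and 3.37 ± 0.17 in monolayers. The glutamate carriers of glia were low: Slc1a3 was at 9.18 ± 2.84 CPM in the SI crypts and under 3 CPM in each library of the other groups, and Slc1a2 had group means of 2.27 to 4.21 CPM. Slc1a3 fell in SI culture (-2.17 ± 0.28), and the interaction of Slc1a2 (-1.21 ± 0.26) was not called with GC and length trends removed (-0.70). Slc6a7, the proline carrier of the brain, went from 2.51 ± 0.478 to 0.462 ± 0.193 CPM in the SI and from 2.80 ± 0.333 to 0.288 ± 0.0770 CPM in the LI. The 7 markers of enteric neurons and glia summed to 13.3 to 26.3 CPM in all libraries, and Elavl4, a marker of neurons, was at 0.104 to 0.322 CPM. Slc6a3, the dopamine carrier, was at 0.477 ± 0.30 CPM in the SI crypts and had no count in the SI monolayers, at least 11.3-fold lower against the limit of 3 counts per library, or 5.66-fold if 2 counts are 1 fragment.

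Members outside these roles included 2 with at least 10 CPM in a group. Slc7a15 measured 46.6, 28.0 and 21.4 CPM in the SI crypts, 0.583, 0.462 and 0.265 CPM in the SI monolayers, 0.323, 0.159 and 0.0261 CPM in the LI crypts and 0.0290, 0.273 and 0.0883 CPM in the LI monolayers. It was found at over 20 CPM in each SI crypt library and at under 1 CPM in every other library. It was higher in SI than in LI crypts (7.56 ± 0.60) and fell in SI culture (-6.19 ± 0.54, edgeR adjusted p = 5.7e-06). Without LI crypts library 1 the difference in crypts was 8.41 and the interaction of Slc7a15 went from -5.75 ± 1.40 to -6.61, and without LI monolayers library 2 the interaction was not called (-4.59). Slc7a4 measured 12, 11.5 and 14.3 CPM in the SI crypts, 10.2, 10.4 and 8.76 CPM in the SI monolayers, 19.2, 19.9 and 17.4 CPM in the LI crypts and 4.16, 4.0 and 4.16 CPM in the LI monolayers. It fell in LI culture (-2.20 ± 0.11) and gave -0.36 ± 0.10 in the SI, so that SI monolayers were above LI monolayers (1.26 ± 0.11) although SI crypts were not above LI crypts (-0.58 ± 0.10). Slc43a3, a carrier of purine bases, was at 0.50 ± 0.0315 CPM in the SI monolayers and 2.23 ± 0.166 CPM in the LI monolayers, and Slc38a11 at 0.820 ± 0.13 and 2.41 ± 0.530 CPM. Slc38a11 was called higher in SI crypts without SI crypts library 3 (1.01, against 0.74 ± 0.30). Both had a negative interaction, of -2.68 ± 0.36 and -2.29 ± 0.42. Of the 12 tested members under 1 CPM in every group, 8 had a call in at least 1 of the 5 comparisons. The share of all genes with such a call was not computed. Among the 8 were Slc38a8 and Slc1a7, which had no count in LI crypts. They were at least 14.9-fold and 6.34-fold higher in SI than in LI crypts (7.45-fold and 3.17-fold if 2 counts are 1 fragment).

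Of the members that were higher in SI crypts, the share that was also higher in SI monolayers was near that of all genes. Of the 20 members called higher in SI than in LI crypts, 11 were also called higher in the monolayers (Slc15a1, Slc1a1, Slc1a3, Slc3a1, Slc43a2, Slc6a19, Slc6a20a, Slc6a20b, Slc6a4, Slc7a8 and Slc7a9), 9 were not called and none was called in the opposite direction. Of all genes called higher between the crypts, 49.8% were called higher between the monolayers. Of the 6 called lower, Slc6a14 was also called lower in monolayers and the other 5 were not called, beside 39.6% of all genes that were called lower in both. In monolayers alone, Slc7a11, Slc7a3 and Slc7a4 were called higher in SI, and Slc15a3, Slc36a4, Slc38a11 and Slc43a3 lower. Among the members with at least 10 CPM, the excess of SI over LI narrowed most, by the interaction, for Slc7a15, Slc6a19 and Slc43a2, at -5.75 ± 1.40, -4.33 ± 0.64 and -3.37 ± 0.36, followed by Slc7a7 and Slc3a2.

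**Figure D5:**
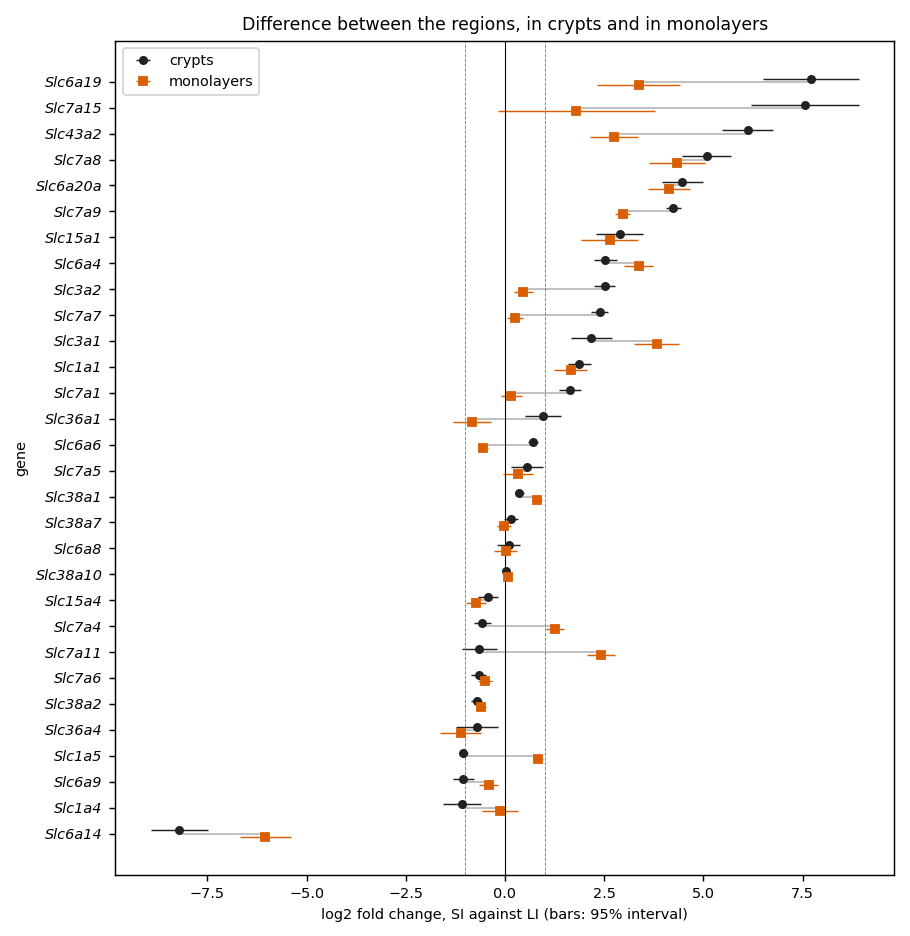
Log2 fold change of SI relative to LI in crypts (black circles) and in monolayers (orange squares) for the 30 members with at least 10 CPM in a group, ordered by the difference in crypts, with 95% intervals and dashed lines at -1 and 1. The orange squares of Slc6a19, Slc43a2, Slc3a2 and Slc7a7 lie nearer to 0 than the black circles, those of Slc3a1 and Slc7a11 lie farther to the right, and Slc6a14 is far to the left in both.

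Other genes of the pathways were taken from lists. Of 6 partners and neighbours of the brush border and basolateral carriers, 3 were called lower and none higher in SI culture, 2 lower and none higher in LI culture, 4 higher and 1 lower in SI than in LI crypts, and 4 higher in SI than in LI monolayers. Shares over all genes were 16.4% lower in SI culture and 23.5% lower in LI culture. Between the crypts 11.6% of all genes were higher and 11.1% lower in the SI, and between the monolayers 12.4% were higher. Slc16a10, the basolateral carrier of aromatic amino acids, went from 158 ± 40.6 to 34.5 ± 1.40 CPM in the SI and was under 6 CPM in both LI groups. Pdzk1, a scaffold of brush border carriers, went from 87.7 ± 22.5 to 13.5 ± 0.936 CPM in the SI and was under 1 CPM in both LI groups. Slc9a3, the sodium-proton exchanger that sustains the proton gradient used by Slc15a1, fell in both regions, from 314 ± 67.9 to 37.9 ± 0.511 CPM in the SI and from 242 ± 33.6 to 2.42 ± 0.483 CPM in the LI. The list's median in SI culture was -1.47 and that of all genes -0.05.

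In the list of 24 genes of the amino acid stress response, 19 were called higher and none lower in SI culture, and 14 higher and 3 lower in LI culture, at medians of 2.16 and 1.20 beside -0.05 over all genes in either comparison. Shares over all genes were 9.71% higher in SI culture, and 14.5% higher and 23.5% lower in LI culture. Chac1, which degrades glutathione, went from 4.43 ± 2.44 to 93.9 ± 5.28 CPM in the SI and from 3.69 ± 2.20 to 71.7 ± 1.02 CPM in the LI. Asns, asparagine synthetase, went from 64.2 ± 18.0 to 334 ± 6.37 CPM and from 45.5 ± 5.20 to 183 ± 4.36 CPM. Psat1 and Phgdh, enzymes of serine synthesis, rose by 3.82 ± 0.13 and 2.93 ± 0.09 in the SI and by 3.16 ± 0.13 and 2.33 ± 0.08 in the LI. The 3 genes called lower in the LI were Cth, Cbs and Stc2, of which Cth and Cbs make cysteine from homocysteine by transsulfuration. Cth was at 91.2 ± 5.43 CPM in the LI crypts and 16.0 ± 1.13 CPM in the LI monolayers, against 92.5 ± 1.85 and 136 ± 2.07 CPM in the SI. In the interaction 10 genes of the list were called higher and 1 lower, beside 11.4% and 8.51% of all genes. Among the transporters for growth and the stress response 3 were called higher, one of them Slc7a11. Another 2 of these, Slc7a1 and Slc7a2, were called lower. Over all transporter members 7 were called higher and 18 lower.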

How the data were processed

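RNA was extracted by the authors from freshly isolated crypts and from monolayers, and per the labels and methods paired-end reads were aligned to GRCm38 with STAR 2.7.9a and counted on GENCODE genes with featureCounts 2.0.2. The deposited values used here are raw counts, whole numbers per gene without normalization, in 12 libraries of 4 groups. The authors' second table, counts normalized by DESeq2, was not used. Whether both mates or the strand were counted is not given in the sources used here.

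Symbols, positions and exon lengths came from GENCODE M21 on the same build, and 346 of 55487 genes had no symbol. Counts were filtered by filterByExpr, scaled by TMM and tested with the robust quasi-likelihood fit of edgeR 4.0.16 (R 4.3.3) in 1 model of the 4 group means, with 5 contrasts and p-values adjusted over all 19581 genes. The median biological coefficient of variation was 0.127. CPM are TMM-scaled, and intervals are 95%. Limits from 3 counts cover counting error only. Where all libraries of a group were at 0, folds were taken against the mean of 3 counts per library.

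The members and gene lists were chosen with earlier results of these data known. Members with a mean of at least 10 CPM in a group are named with all values, and those of at least 1 CPM where they had a call. Other genes of the 2 lists were named as examples after their values were seen, and some genes of the lists are not reported here. Same-numbered libraries did not deviate together (18 pairs, r from -0.05 to 0.06, under the 0.1 required), so replicate numbers were not used as pairs. Other-numbered pairs gave r from -0.108 to 0.098. A low r between deviations in groups of 3 libraries cannot exclude shared mice.

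The alternatives were upper quartile normalization, no filter, at least 10 counts in each library, calls without a minimum size, the compared groups alone, the replicate number as a block, loess trends (span 0.3) of GC content and length removed, counts halved, DESeq2 1.42.0, and each library left out in turn.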

Additional observations from a re-analysis of the deposited data

Results flagged for a closer look

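The results below were picked out because the change in culture differed between the SI and the LI by the interaction test of edgeR (adjusted p under 0.05 and a difference of at least 1). They cover the named members, which had a mean of at least 10 CPM in a group, or of at least 1 CPM with a call. The values are the log2 fold change of monolayers against crypts in the SI minus that in the LI. No explanation was weighed for any of them, and groups of 3 libraries are too small for a test of single outlying libraries.

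A brush border carrier had a lower value in the SI for Slc6a19 (-4.33), Slc36a1 (-1.79) and Slc7a9 (-1.28), and a higher value for Slc3a1 (1.65) and Slc6a14 (2.17). Slc6a14 moved in opposite directions in the regions in all libraries, from 1.55 to 3.38 CPM in SI crypts to 4.24 to 6.95 CPM in SI monolayers, and from 747 to 878 CPM in LI crypts to 352 to 374 CPM in LI monolayers.

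Among the basolateral and system L members, the difference was -3.37 for Slc43a2, -2.14 for Slc7a7, -2.05 for Slc3a2 and 2.84 for Slc43a1. The pair Slc3a2 and Slc7a7 thus had nearly the same difference.

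Among the carriers for growth it was 3.07 for Slc7a11, 2.30 for Slc7a3, 1.87 for Slc1a5, -1.49 for Slc7a1 and -2.79 for Slc7a2. The taurine carrier Slc6a6 had -1.26. The glutamate carriers Slc1a2 and Slc1a3 had -1.21 and -1.57. The remaining members were Slc7a15 at -5.75, Slc43a3 at -2.68, Slc38a11 at -2.29 and Slc7a4 at 1.83.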

How the results depend on the processing

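Of 218 recomputed counts of called members, 213 stayed within 1.5 times the value given in the report. The 5 that moved did so with no minimum fold change: members higher in SI culture went from 10 to 16, higher in LI culture from 12 to 20, lower in SI than in LI crypts from 6 to 12, lower in SI than in LI monolayers from 5 to 11, and higher in the interaction from 7 to 12. Over all genes, in the same order, these counts went from 1902 to 5679, 2832 to 6279, 2181 to 4841, 1739 to 4867 and 2242 to 4559. Leaving out 1 library at a time gave 9 to 11 higher and 20 to 23 lower members in SI culture, 12 to 16 and 13 to 14 in LI culture, 20 to 25 and 4 to 7 between the crypts, 14 to 15 and 4 to 6 between the monolayers, and 6 to 9 and 17 to 18 in the interaction. With the replicate number as a block, these counts were the same as without it except for 15 members higher in SI than in LI monolayers. That block carries no known pairing, since no label ties a replicate number to a mouse. The low r of same-numbered libraries (-0.05 to 0.06) cannot exclude shared mice.

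Removing trends of GC content and length moved the median of all genes from -0.05 to 0.16 in SI culture and from -0.05 to 0.21 in LI culture, and upper quartile normalization moved it to -0.17 in LI culture, so members near the required size of 1 gained or lost a call with these settings. Over the named members and the 5 comparisons, 4061 of 4235 recomputed values kept their direction and call, 104 gained a call and 29 lost it, none of the called values changed sign, and 41 values without a call did. Slc7a9 in LI culture (-0.98) and Slc1a4 in LI culture (0.999) lay so near that size that several settings called them. Depth limits statements on the 24 members under 1 CPM, where 3 counts correspond to up to 0.0508 CPM.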
